A study of Mus musculus with 39 samples.

Results

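Livers of old mice treated with ABT-737 were compared with livers of young mice, to see which transcripts still differed from young liver after the treatment. The comparison was defined by the sample labels alone and holds 7 of the 39 samples of the series, 3 ABT-737-treated and 4 young livers. All mice were male Prf1-/- animals on the C57BL/6 background, so the controls also lacked perforin, the pore-forming protein of cytotoxic lymphocytes, and no liver of a mouse with intact Prf1 was analysed here. Young mice were 3 months old and untreated. Treated mice were 20 months old and had received ABT-737, an inhibitor of the anti-apoptotic BCL-2 family proteins BCL-2, BCL-XL and BCL-W, by intraperitoneal injection at 25 mg/kg. Injections were given on 2 consecutive days a month over 2 months and began at the age of 18 months. The treatment entry reads ABT-738 and ABT-739 for ABT-737 replicates 4 and 5, whose titles name ABT, and both were counted as ABT-737. Age and drug changed together between the groups, since no young mouse was treated, and their contributions cannot be told apart in this comparison. Livers of 3 vehicle-treated mice of the same age, which received the solvent with DMSO on the same schedule, were therefore fitted with them and are given beside some of the results. RNA of whole perfused liver was sequenced by a bulk form of MARS-seq, which counts the 3′ ends of transcripts.

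The liver carries out metabolic work that follows the daily feeding cycle, and its hepatocytes make most plasma proteins, bile acids and lipoproteins. A transcriptional clock sets the daily rhythm of many of these genes. BMAL1 and CLOCK activate transcription of their own repressors, and REV-ERB proteins repress Arntl and Nfil3. Proteins bound for secretion fold in the endoplasmic reticulum with the help of chaperones, whose genes are induced when unfolded protein accumulates. Hepatocytes store triglyceride in lipid droplets that are coated by dedicated proteins. In old liver, senescent cells, which have left the cell cycle under inhibitors such as p21 and p16, and infiltrating leukocytes can accumulate.

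Libraries held 527995 to 672778 counts in young liver and 267345 to 560554 in ABT-737-treated liver, so that 1 count was worth 1.49 to 3.96 CPM (counts per 1000000 counts after TMM scaling). Vehicle replicate 3 held 223957 counts and stood apart from the other libraries on the first principal component. It lies outside the comparison, but the groups were fitted with a common estimate of the spread, so counts without it are given where they differ. Counts of 0 in a group allow up to 3 counts over its libraries, 2.54 CPM with ABT-737. All 30 hepatocyte identity markers had counts, and their summed level was 163994 to 186957 CPM in young and 171547 to 179747 CPM in treated liver. Of the skeletal muscle markers 10 of 14 and of the adipocyte markers 4 of 10, among them Ckm, Myh4, Adipoq and Plin1, had no count in either group. Prf1 itself had 1, 0, 0 and 1 counts in the young and 3, 3 and 0 in the treated libraries, and because a 3′ tag may lie outside the disrupted part of the gene, these counts do not check the genotype.

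Of 5583 genes tested, 469 differed between ABT-737-treated and young liver (8.40%, edgeR quasi-likelihood test with Benjamini-Hochberg adjusted p under 0.05). Of these, 175 genes (3.13%) were higher and 294 (5.27%) lower in treated liver, and the median absolute log2 fold change was 1.25 among the higher and 1.92 among the lower genes. The libraries of both groups did not overlap in CPM for 453 of the 469 genes, against 1635 (29.3%) of all genes tested. When libraries were also corrected for the GC content of transcript ends, as described at the end, 207 genes were higher and 204 lower, and 308 of the 469 were called in the same direction. With 1 library left out the count ranged from 197 without ABT-737 replicate 5 to 964 without vehicle replicate 3, and it was 1102 when only the 7 libraries compared were fitted. Where a call below was lost with 1 library left out, the highest adjusted p over the 10 leave-outs is given with the library that gave it, and 71 of 127 called genes that are named here lost their call in at least 1 leave-out. In the same fit 1261 genes (22.6%) differed between vehicle-treated and young liver, and 215 (3.85%) between ABT-737 and vehicle.

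The highest fold change was that of Cdkn1a (NM_007669, chromosome 17 from 29093769 to 29100722), which encodes the cyclin-dependent kinase inhibitor p21. It stood at 3.87, 7.45, 4.61 and 3.84 CPM in the 4 young livers and at 249.7, 478 and 297 CPM in the 3 treated livers, so that the lowest treated library lay far above every young library. The fold change was 65.2 (log2 fold change 6.03, SE 0.62, adjusted p = 7.13e-05), and the call held in every alternative that tested it. Vehicle-treated livers had 419, 453 and 66.8 CPM, and the log2 fold change of ABT-737 against vehicle was 0.16 (adjusted p = 0.926). Of the senescence regulators, 2 of 10 tested members were called higher and 0 lower, 20% of the list against 8.40% of all genes. The other called member was Gdf15, a stress-induced cytokine of the TGF-β family, with 7.74, 20.9, 27.6 and 38.4 CPM in young and 119, 72.1 and 94.1 CPM in treated liver. All treated livers lay above the young range for Gdf15 (log2 fold change 1.96, SE 0.42, adjusted p = 0.00854). The p16 and p15 genes Cdkn2a and Cdkn2b had 0 counts in all 7 libraries, which is below detection at this depth.

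Mt2 and some acute phase genes were also called higher. Mt2 (NM_008630, chromosome 8 from 94172618 to 94173567), a zinc- and copper-binding metallothionein, was at 13.6, 8.94, 13.8 and 7.67 CPM in young and 563, 178 and 111 CPM in treated liver. Mt2 rose without overlap of the groups (log2 fold change 4.63, SE 0.79, adjusted p = 0.00266). The vehicle libraries were at 367, 5535 and 1804 CPM (ABT-737 against vehicle log2 fold change −3.22, adjusted p = 0.0173). Mt1, its neighbour, was at 75.5, 115, 35.3 and 24.9 CPM in young and 602, 321 and 111 CPM in treated liver and did not pass the test (log2 fold change 2.43, SE 0.74, adjusted p = 0.0519), but was called in 6 of 18 alternatives, among them each fit without 1 vehicle library (lowest adjusted p 2.40e-12, with no filter beyond 1 count). Among acute phase genes 4 of 35 tested members were called higher and 1 lower, 14.3% of the list against 8.40% of all genes. Without vehicle replicate 3, 12 of the list were called, but the count over all genes also rose, from 469 to 964. Saa3, a serum amyloid made in inflamed tissue, was at 7.74, 11.9, 13.8 and 19.2 CPM in young, 67.4, 34.1 and 42.1 in treated and 87.3, 143 and 135 in vehicle-treated liver. In treated liver Saa3 was above young (log2 fold change 1.77, SE 0.37, adjusted p = 0.00781) and below vehicle (log2 fold change −1.46, adjusted p = 0.0122). Orm1 and Saa4 were higher, with log2 fold changes of 1.27 and 0.89 (adjusted p = 0.022 and 0.0365), and their calls were lost without ABT-737 replicate 3 (adjusted p = 0.105 and 0.199). Il1rap, which encodes a co-receptor of interleukin-1, was lower (log2 fold change −1.20, SE 0.31, adjusted p = 0.027), and was not called after GC correction (adjusted p = 0.176) or without ABT-737 replicate 5 (adjusted p = 0.138).

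**Figure D1:**
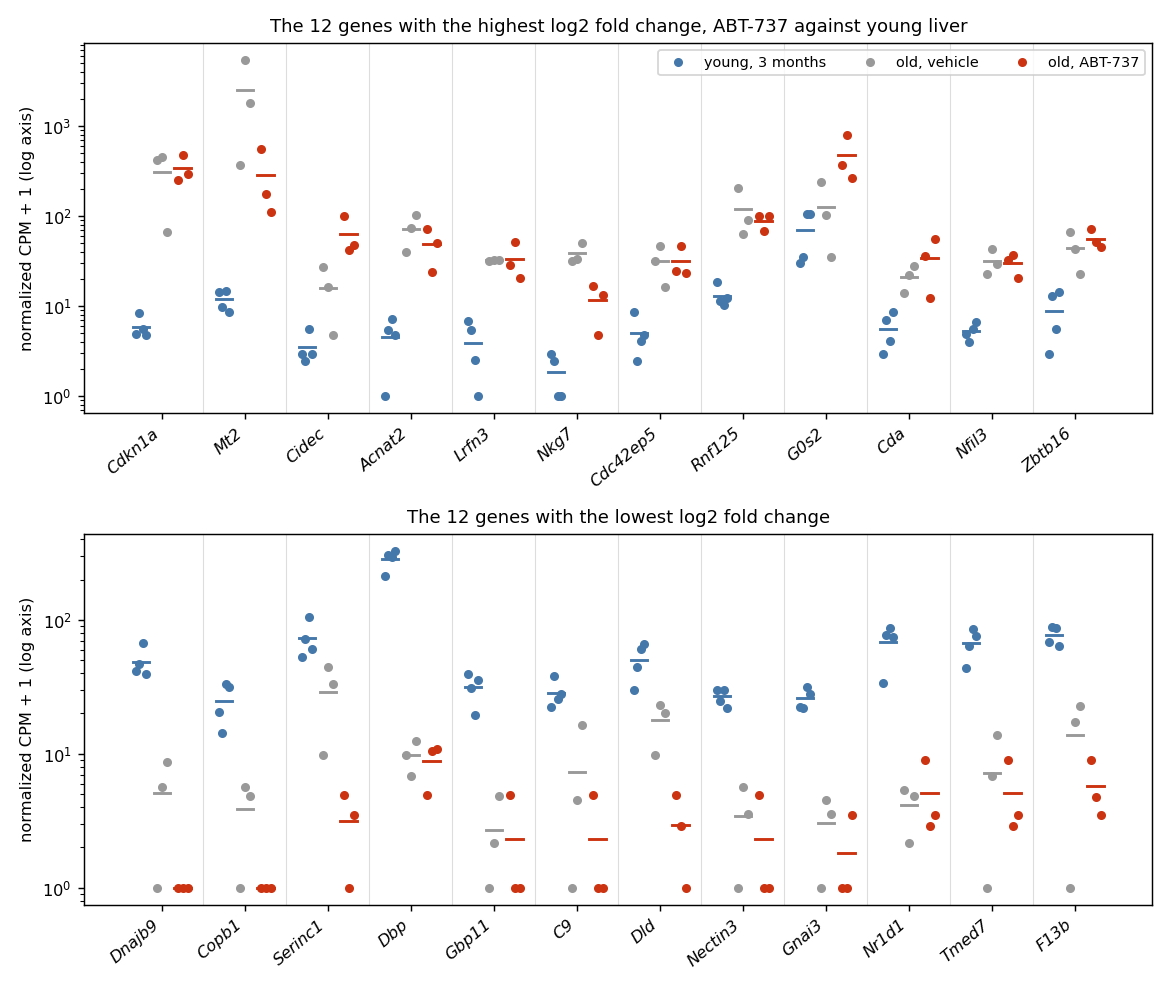
Normalized CPM plus 1 on a log axis for the 12 genes with the highest and the 12 with the lowest log2 fold change among called genes without overlap, with 1 point per liver and bars at the group means. Treated livers (red) lay above every young liver (blue) in the upper panel and below in the lower panel, and vehicle-treated livers (grey) are shown beside them.

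Other genes at the top were Acnat2 (an acyl-CoA N-acyltransferase), Lrfn3 (an adhesion protein), Cdc42ep5 (an effector of the GTPase CDC42), Rnf125 (a ubiquitin ligase), Cda (cytidine deaminase) and Zbtb16 (the transcription factor PLZF), with log2 fold changes of 3.47, 3.44, 2.99, 2.85, 2.74 and 2.72. Rnf125 was at 17.4, 10.4, 9.22 and 11.5 CPM in young and 99.1, 68.3 and 99.0 CPM in treated liver (adjusted p = 0.00143). Calls of Cda and Cdc42ep5 rested on 11 and 9 counts over the young libraries, and were lost without ABT-737 replicate 5 (adjusted p = 0.0997) and replicate 4 (adjusted p = 0.0606), respectively. At the other end stood genes with few or no counts in treated liver. Copb1, a subunit of the COPI vesicle coat, was at 19.4, 13.4, 32.3 and 30.7 CPM in young liver and had 0 counts in all treated libraries, at least 9.36-fold lower when 3 counts over the treated group are assumed (adjusted p = 0.00339). Serinc1, a membrane protein, had 174 counts in young and 2 in treated livers, a ratio of 43.6-fold (95% counting interval 11.9 to 363) with adjusted p = 5.59e-04. Vehicle-treated livers had 8.73, 43.3 and 32.1 CPM (ABT-737 against vehicle log2 fold change −4.08, adjusted p = 0.00699). Dld, the dihydrolipoamide dehydrogenase of mitochondrial dehydrogenase complexes, went from 117 counts to 2, a ratio of 29.3-fold (95% counting interval 7.94 to 245) with adjusted p = 6.52e-04, and was also lower than with vehicle (adjusted p = 0.0243). The cargo receptor gene Tmed7 was at 42.6, 62.6, 84.5 and 74.8 CPM in young and 7.93, 1.90 and 2.48 CPM in treated liver. Levels of Tmed7 fell, with each treated liver below all young ones (log2 fold change −4.19, SE 0.57, adjusted p = 6.52e-04). Gbp11, Nectin3, Gnai3 and C9 had 1 count each over the treated libraries against 70, 61, 59 and 66 over the young ones (adjusted p = 0.00243, 0.00251, 0.00241 and 0.00632). The call of C9, a complement component, was lost without ABT-737 replicate 4 (adjusted p = 0.0559).

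Clock genes were called in both directions. Of the circadian clock genes, 3 of 17 tested members were called higher and 3 lower, 35.3% of the list against 8.40% of all genes. The same number was called without vehicle replicate 3, where 964 genes in all were called instead of 469. Dbp (NM_016974, chromosome 7 from 45705247 to 45710203), a PAR bZIP activator at the output of the clock, had the smallest adjusted p among clock genes. It was at 213, 303, 292 and 326 CPM in young liver and 3.96, 9.48 and 9.90 CPM in treated liver. Dbp was lower in every treated than in every young liver (log2 fold change −5.04, SE 0.35, adjusted p = 5.69e-07). Nr1d1 (NM_145434, chromosome 11 from 98767932 to 98775377), which encodes the repressor REV-ERBα, was at 32.9, 76.0, 86.0 and 72.9 CPM in young and 7.93, 1.90 and 2.48 CPM in treated liver. All treated livers lay below the young range for Nr1d1 (log2 fold change −4.22, SE 0.56, adjusted p = 5.96e-04). Neither gene overlapped between groups, and both calls held in every alternative that tested them. Opposite to them, Nfil3 (NM_017373, chromosome 13 from 52967209 to 52981039), a repressor that binds the same sites as DBP, was at 3.87, 2.98, 4.61 and 5.75 CPM in young and 31.7, 36.0 and 19.8 CPM in treated liver. Nfil3 rose without overlap of the groups (log2 fold change 2.72, SE 0.46, adjusted p = 0.00241). Rora, a nuclear receptor gene, rose from 49.2 ± 17.3 to 147 ± 16.0 CPM (SD, n = 4 and 3), with log2 fold change 1.56, SE 0.28, adjusted p = 0.00392. Alas1, the first enzyme of heme synthesis and a clock output, was lower (log2 fold change −1.30, SE 0.33, adjusted p = 0.0229), but not without ABT-737 replicate 5 (adjusted p = 0.124).

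Clock genes below the count filter, and Cry1, Per1, Bhlhe40, Tef and Hlf, were named after their values were seen. Other clock genes looked at in the same way are not given. Arntl, the gene of BMAL1, had 1 count over the young libraries and 18 over the treated ones, a ratio of 35.9-fold (95% counting interval 5.67 to 1495), with 5, 8 and 5 counts in the treated libraries. Nr1d2, the paralog of Nr1d1, had 6, 9, 8 and 11 counts in young and 0 in all treated libraries, at least 5.68-fold lower, and Ciart, a repressor of the clock, had 4, 12, 3 and 7 and 0, at least 4.35-fold lower. Npas2 had no count in young or treated liver. Per1, Bhlhe40, Tef and Hlf did not pass the test, with log2 fold changes of −0.84, −0.60, −0.18 and −0.36 (adjusted p = 0.34, 0.386, 0.687 and 0.503). Cry1 did not pass the test either, and was called, as higher, only after GC correction (adjusted p = 0.0166). In vehicle-treated liver Dbp was at 8.73, 5.85 and 11.6 CPM, Nr1d1 at 4.36, 1.17 and 3.85 and Nfil3 at 21.8, 42.1 and 28.3, and the log2 fold changes of ABT-737 against vehicle were −0.04, 0.31 and −0.16 (adjusted p = 0.993, 0.934 and 0.902). The hour of tissue collection is not given in the sources used here, and its part in these differences was not tested. Use of strand in the counting is not stated, and Dbp overlaps Sphk2 and Nr1d1 overlaps Thra on the opposite strand.

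Several genes of protein folding in the endoplasmic reticulum were lower in treated liver. Of the heat shock and unfolded protein response genes 2 of 34 tested members were called higher and 7 lower, 26.5% of the list against 8.40% of all genes. The median log2 fold change was −0.36 against −0.001 over all genes, the same with Dnajb9 set to its bound. After GC correction 0 higher and 7 lower were called. Hspa5 (NM_001163434, chromosome 2 from 34772090 to 34776529), the Hsp70 chaperone BiP, was at 434, 356, 432 and 501 CPM in young and 95.1, 68.3 and 96.6 CPM in treated liver, which is 5.01-fold lower (log2 fold change −2.33, SE 0.41, adjusted p = 0.00312). Dnajb9 (NM_013760, chromosome 12 from 44205897 to 44210068), its co-chaperone ERdj4, was at 40.7, 46.2, 66.0 and 38.4 CPM in young liver and had 0 counts in all 3 treated libraries, at least 19.2-fold lower (adjusted p = 5.96e-04). Of the cytosolic chaperones, Dnaja1 fell from 143 ± 38.9 to 26.2 ± 4.90 CPM and Hspa1b from 39.4 ± 23 to 6.05 ± 5.10 CPM (SD, n = 4 and 3, adjusted p = 0.0052 and 0.0127). Hspa1b was not called without ABT-737 replicate 4 (adjusted p = 0.0888). Creld2, Manf and Herpud1 are induced by endoplasmic reticulum stress. Creld2 fell from 84.0 ± 10.7 to 31.7 ± 13.3 CPM (adjusted p = 0.0111). Manf fell from 372 ± 121 to 175 ± 51.6 CPM (adjusted p = 0.0322) and Herpud1 from 789 ± 132 to 412 ± 45.0 CPM (SD, n = 4 and 3, adjusted p = 0.0275). Manf and Herpud1 were named after their values were seen, and Creld2, Manf and Herpud1 were not called without ABT-737 replicate 5, 5 and 4 (adjusted p = 0.0807, 0.161 and 0.128). In the MHC class I list, the 2 genes called lower were Pdia3 (log2 fold change −2.66, SE 0.43, adjusted p = 0.00212) and Canx (log2 fold change −1.48, SE 0.28, adjusted p = 0.00499), which encode an oxidoreductase and a lectin chaperone of the same compartment. Pdia3 was at 67.8, 87.9, 86.0 and 78.7 CPM in young and 7.93, 17.1 and 9.90 CPM in treated liver. The 2 members called higher, the cytosolic chaperone genes Hsp90ab1 (log2 fold change 0.92) and Hspb1 (log2 fold change 1.32), were not called after GC correction (adjusted p = 0.0622 and 0.0729), nor without ABT-737 replicates 3 and 4, respectively (adjusted p = 0.156 and 0.154). For vehicle minus young the list had a median of −0.53, with 2 members called higher and 11 lower. In vehicle-treated liver Hspa5 was at 4.36, 71.4 and 104 CPM, and the log2 fold change of ABT-737 against vehicle was 0.33 (adjusted p = 0.795).

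Promoters of the chaperone genes called lower are shown where they hold the endoplasmic reticulum stress element, to which ATF6 binds together with NF-Y, or the element ERSE-II. RefSeq promoter windows, from 250 bases before to 50 bases after a transcription start in build GRCm38.p6, were searched on both strands. The stress element was CCAAT and CCACG with 9 bases between them, and ERSE-II was ATTGG and CCACG with 1 base between them. No window shown holds both, so the motifs do not overlap. Of 32851 windows in the table, 0.119% held the first and 0.0365% the second. Of the 34 heat shock and unfolded protein response genes tested, 27 had a window and 8 held either element. Of these 8, Hspa5, Creld2 and Herpud1 were called lower and 5 were not called. The windows of those 5 are not shown, so the selection does not link the elements to the lower levels. The elements are in capitals in the following windows, read 5′ to 3′ along the gene's strand.
Hspa5 (chr2:34771840-34772139, plus strand): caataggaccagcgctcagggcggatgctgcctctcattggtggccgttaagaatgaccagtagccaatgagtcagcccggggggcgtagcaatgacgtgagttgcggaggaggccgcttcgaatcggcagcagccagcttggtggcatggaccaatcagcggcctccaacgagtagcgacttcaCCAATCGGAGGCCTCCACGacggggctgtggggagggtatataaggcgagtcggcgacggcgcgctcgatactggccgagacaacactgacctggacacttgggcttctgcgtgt
Creld2 (chr15:88819396-88819695, plus strand): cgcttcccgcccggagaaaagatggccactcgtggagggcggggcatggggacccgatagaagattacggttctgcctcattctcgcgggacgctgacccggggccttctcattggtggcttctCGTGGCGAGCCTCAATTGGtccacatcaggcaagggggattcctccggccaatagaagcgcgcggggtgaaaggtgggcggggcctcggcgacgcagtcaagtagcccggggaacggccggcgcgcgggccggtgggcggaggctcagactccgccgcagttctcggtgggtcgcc
Canx (chr11:50325624-50325923, minus strand): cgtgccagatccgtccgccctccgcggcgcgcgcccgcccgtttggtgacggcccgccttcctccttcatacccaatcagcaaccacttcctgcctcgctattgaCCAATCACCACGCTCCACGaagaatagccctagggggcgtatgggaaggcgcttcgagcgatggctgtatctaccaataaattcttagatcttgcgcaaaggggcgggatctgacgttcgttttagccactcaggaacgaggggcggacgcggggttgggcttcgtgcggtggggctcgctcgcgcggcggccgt
Herpud1 (chr8:94386179-94386478, plus strand): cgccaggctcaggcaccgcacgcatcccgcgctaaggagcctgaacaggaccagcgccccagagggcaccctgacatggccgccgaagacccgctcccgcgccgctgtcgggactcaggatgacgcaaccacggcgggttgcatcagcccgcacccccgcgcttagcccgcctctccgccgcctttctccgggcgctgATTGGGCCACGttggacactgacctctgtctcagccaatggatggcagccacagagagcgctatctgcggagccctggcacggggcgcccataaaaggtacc
The element begins 65 bases before the start in Hspa5, 145 bases before the start in Canx and, on the other strand, 126 bases before the start in Creld2, and ERSE-II begins 52 bases before the start in Herpud1. The windows of Dnajb9, Dnaja1, Hspa1b and Pdia3 held neither, and Manf had no window.

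**Figure D2:**
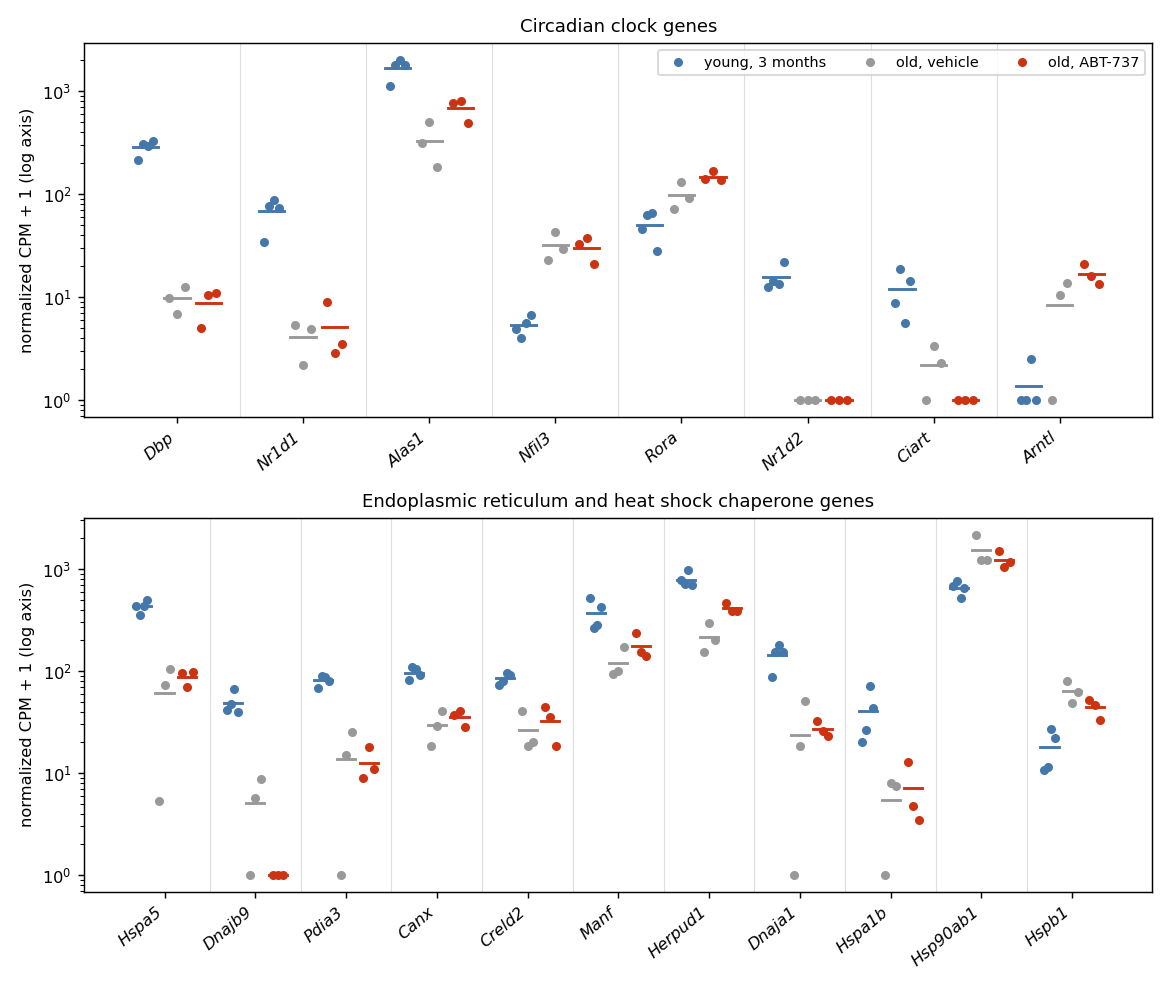
Normalized CPM plus 1 on a log axis for clock genes (top) and chaperone genes (bottom), 1 point per liver and bars at the group means of 4 young, 3 vehicle-treated and 3 ABT-737-treated livers. Dbp, Nr1d1, Alas1, Nr1d2, Ciart and the first 9 chaperone genes were lower in every treated liver than in every young one, whereas Nfil3, Rora, Arntl, Hsp90ab1 and Hspb1 were higher.

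Of the fatty acid and triglyceride synthesis genes 4 of 34 tested members were called higher and 0 lower, 11.8% of the list against 8.40% of all genes, with a median of 0.04. G0s2 and Fitm1, which act at lipid droplets, were named by other parts of the rule, and no list of droplet genes was tested. Cidec (NM_178373, chromosome 6 from 113424636 to 113435755), a protein that lets lipid droplets grow, was at 1.94, 1.49, 4.61 and 1.92 CPM in young and 99.1, 41.7 and 47.0 CPM in treated liver. Levels of Cidec rose, with each treated liver above all young ones (log2 fold change 4.42, SE 0.59, adjusted p = 6.27e-04). It was at 26.2, 15.2 and 3.85 CPM with vehicle (ABT-737 against vehicle log2 fold change 2.24, adjusted p = 0.0183). Cidec passed the count filter only through the ABT-737 libraries, where it was high, so this contrast is not separate evidence. G0s2 (NM_008059, chromosome 1 from 193272160 to 193273188), an inhibitor of the triglyceride lipase ATGL, was at 29.0, 34.3, 106 and 106 CPM in young, 369, 799 and 265 in treated and 240.0, 103 and 34.7 in vehicle-treated liver. G0s2 was higher in every treated than in every young liver (log2 fold change 2.80, SE 0.54, adjusted p = 0.0052). Against vehicle its log2 fold change was 2.08 (adjusted p = 0.0631). Fitm1, which helps to form droplets, was at 19.4, 7.45, 20.0 and 26.9 CPM in young and 127, 96.7 and 124 CPM in treated liver. Fitm1 was higher in every treated than in every young liver (log2 fold change 2.66, SE 0.56, adjusted p = 0.00839). Agpat2, an acyltransferase on the way to triglyceride, rose from 226 ± 35.9 to 513 ± 49.9 CPM and Acacb, an acetyl-CoA carboxylase, from 28.8 ± 8.03 to 102 ± 42.4 CPM (SD, n = 4 and 3, adjusted p = 0.00342 and 0.0125). Elovl3, a fatty acid elongase, was at 188, 70.0, 119.8 and 152 CPM in young and 583, 1242 and 559 CPM in treated liver. All treated livers lay above the young range for Elovl3 (log2 fold change 2.60, SE 0.69, adjusted p = 0.0275). The call of Acacb was lost without ABT-737 replicate 5 (adjusted p = 0.102) and that of Elovl3 without replicate 4 (adjusted p = 0.131). Of the adipocyte list 4 of 10 members, among them Adipoq and Plin1, had no count in young or treated liver. Only Cidec and Car3 of this list passed the count filter. Car3, a carbonic anhydrase, had a log2 fold change of −0.30 (adjusted p = 0.67) against young where vehicle had −3.35 (adjusted p = 1.05e-04).

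Genes of fatty acid breakdown were called in both directions. Of the fatty acid oxidation and PPAR-alpha genes 3 of 59 tested members were called higher and 9 lower, 20.3% of the list against 8.40% of all genes. The median was 0.15. In the fit without vehicle replicate 3, 21 of the list were called, but the count over all genes also rose, from 469 to 964. Etfa (NM_145615, chromosome 9 from 55454436 to 55512243), a subunit of the electron transfer flavoprotein that accepts electrons from acyl-CoA dehydrogenases, was at 256, 203, 230.4 and 215 CPM in young and 31.7, 58.8 and 37.1 CPM in treated liver. Etfa fell without overlap of the groups (log2 fold change −2.34, SE 0.35, adjusted p = 0.00145). With vehicle Etfa was at 8.73, 52.7 and 64.2 CPM (ABT-737 against vehicle adjusted p = 0.939). Etfdh, which passes these electrons to ubiquinone, fell likewise (log2 fold change −1.75, SE 0.37, adjusted p = 0.00854). The peroxisomal transporter gene Abcd3 was at 186, 137, 237 and 186 CPM in young and 63.4, 64.5 and 69.3 CPM in treated liver. Levels of Abcd3 fell, with each treated liver below all young ones (log2 fold change −1.50, SE 0.26, adjusted p = 0.00266). Crot, a peroxisomal carnitine acyltransferase gene, went from 176 ± 42.7 to 40.9 ± 25.0 CPM (SD, n = 4 and 3, adjusted p = 0.0224). Acsm3, a medium-chain acyl-CoA synthetase, had 74 counts in young and 3 in treated livers, a ratio of 12.4-fold (95% counting interval 4.07 to 61.4) with adjusted p = 0.00504. Slc27a2, a fatty acid transporter of peroxisomes, the thioesterase gene Acot12, the acyl-CoA synthetase gene Acsl5 and the reductase gene Decr1, named after their values were seen, were also lower (log2 fold changes −1.37, −1.16, −1.72 and −1.25), each lost without ABT-737 replicate 5 (adjusted p = 0.125, 0.123, 0.125 and 0.186). Besides Cidec, the acyl-CoA thioesterase Acot1 (log2 fold change 1.39, SE 0.40, adjusted p = 0.0428) and the carnitine acetyltransferase Crat (log2 fold change 1.25, SE 0.32, adjusted p = 0.0245) were higher. Etfdh and Crot were not called without ABT-737 replicate 5 (adjusted p = 0.0646 and 0.113). Acot1 and Crat were not called without replicate 4 (adjusted p = 0.445 and 0.197). After GC correction 6 members of the list were called higher and 7 lower, and Acot12 and Decr1 were not called.

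Most of the cholesterol and bile acid genes that were called were lower. Of the cholesterol synthesis and uptake genes 0 of 27 tested members were called higher and 5 lower, 18.5% of the list against 8.40% of all genes, with a median of −0.57. Cyp51 (NM_020010, chromosome 5 from 4080674 to 4104697), the lanosterol demethylase, was at 124, 129.7, 203 and 142 CPM in young and 47.6, 30.3 and 27.2 CPM in treated liver (log2 fold change −2.15, SE 0.37, adjusted p = 0.00264), without overlap and in every alternative that tested it. Msmo1, a methylsterol oxidase of the same pathway, had 86 counts in young and 3 in treated livers, a ratio of 14.4-fold (95% counting interval 4.76 to 71.1) with adjusted p = 0.00433. Nsdhl, Sqle and the sterol carrier Stard4 were lower, with log2 fold changes of −1.76, −2.24 and −1.12 (adjusted p = 0.0209, 0.0301 and 0.0452), and their calls were lost without ABT-737 replicate 4, 4 and 5 (adjusted p = 0.117, 0.147 and 0.167). Of the bile acid synthesis and transport genes 1 of 27 tested members were called higher and 7 lower, 29.6% of the list. Slc10a1, the sodium-dependent bile acid importer NTCP, was at 389, 337, 544 and 378 CPM in young and 59.4, 118 and 56.9 CPM in treated liver. Slc10a1 was lower in every treated than in every young liver (log2 fold change −2.35, SE 0.51, adjusted p = 0.00955). Cyp7b1, the oxysterol hydroxylase of the alternative bile acid pathway, was at 139, 247, 109 and 232 CPM in young and 27.7, 39.8 and 9.90 CPM in treated liver. All treated livers lay below the young range for Cyp7b1 (log2 fold change −2.77, SE 0.48, adjusted p = 0.0029). The sterol exporter gene Abcg5 was at 67.8, 79.0, 78.3 and 72.9 CPM in young, 48.0, 58.5 and 46.2 with vehicle and 19.8, 36.0 and 24.8 in treated liver (log2 fold change −1.40, SE 0.27, adjusted p = 0.00544 against young). The steroid dehydrogenase Akr1c6, the muricholic acid enzyme Cyp2c70 and the transporter Slco1b2 were lower, with log2 fold changes of −1.63, −3.57 and −2.08 (adjusted p = 0.00893, 0.0118 and 0.0135), and the seventh was Amacr. Slco1b2, named after its value was seen, was not called after GC correction (adjusted p = 0.115). Only Cyp8b1, the 12α-hydroxylase that sets the share of cholic acid, was called higher in this list. It was at 345, 169.9, 235 and 224 CPM in young, 375, 156 and 256 with vehicle and 642, 749 and 557 in treated liver (log2 fold change 1.42, SE 0.29, adjusted p = 0.00703 against young). It was higher than with vehicle too (log2 fold change 1.34, adjusted p = 0.0252). Cyp7a1, the rate-limiting enzyme of bile acid synthesis, was at 92.9, 83.5, 124 and 106 CPM in young and 111, 9.48 and 96.6 CPM in treated liver, where replicate 4 stood apart from the other treated libraries (adjusted p = 0.479). Without ABT-737 replicate 5 Slc10a1 and Akr1c6 were not called (adjusted p = 0.0703 and 0.0556), nor Cyp2c70 and Slco1b2 without replicate 4 (adjusted p = 0.0857 and 0.116).

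**Figure D3:**
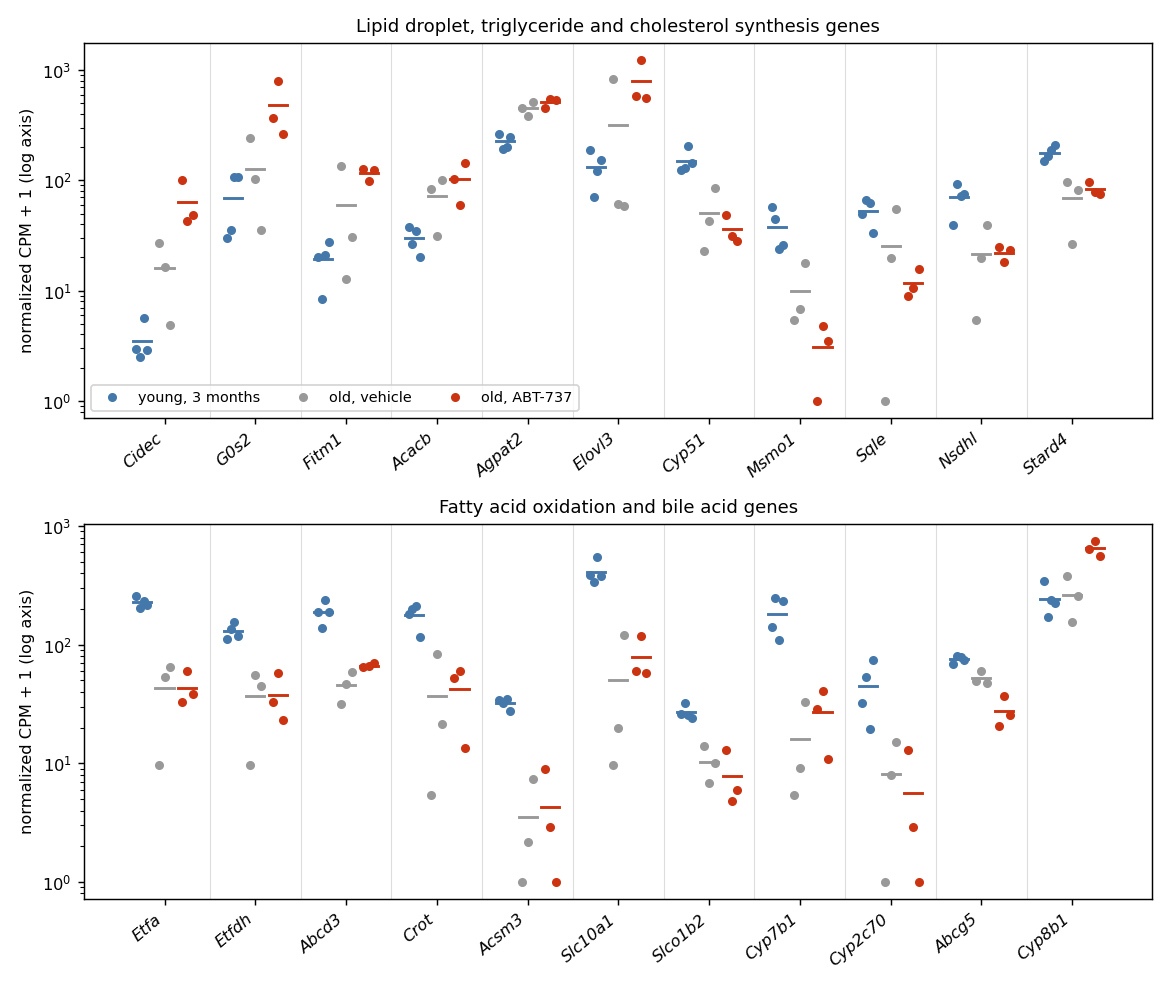
Normalized CPM plus 1 on a log axis for lipid droplet, triglyceride and cholesterol synthesis genes (top) and fatty acid oxidation and bile acid genes (bottom), 1 point per liver and bars at the group means. Cidec, G0s2 and Cyp8b1 were higher in every treated liver than in every young or vehicle-treated one. The other genes of the bottom panel and the 5 cholesterol genes at the right of the top panel were lower in every treated than in every young liver.

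Sex-biased and drug-metabolizing genes, many of which depend on the pulses of growth hormone in males, were partly different from young. Of the male-biased, growth hormone dependent genes 3 of 29 tested members were called higher and 5 lower, 27.6% of the list against 8.40% of all genes. Their median was −0.35 against −1.16 for vehicle minus young. Hsd3b5, a steroid reductase, was at 352, 303, 306 and 284 CPM in young, 13.1, 0 and 1.28 with vehicle and 19.8, 98.6 and 69.3 in treated liver (log2 fold change −2.21, SE 0.39, adjusted p = 0.00312 against young). It was higher than with vehicle (log2 fold change 4.76, adjusted p = 0.00137). Nudt7, a peroxisomal coenzyme A diphosphatase, lay in the same order, at 1729, 1702, 1244 and 1863 CPM in young, 61.1, 83.1 and 199 with vehicle and 412, 377 and 473 in treated liver (log2 fold change −1.96, SE 0.33, adjusted p = 0.00241 against young, and log2 fold change 1.82 with adjusted p = 0.00699 against vehicle). Treated livers thus lay between young and vehicle-treated livers for both genes. The major urinary protein gene Mup11, which has near-identical paralogs, and Selenbp2 were also lower (log2 fold changes −1.21 and −1.30, adjusted p = 0.0374 and 0.0248), with libraries that overlapped, and were not called without ABT-737 replicate 5 (adjusted p = 0.186 and 0.133). The acetyltransferase gene Nat8 was higher, at 79.4, 43.2, 72.2 and 106 CPM in young and 226, 275 and 426 CPM in treated liver. Nat8 rose without overlap of the groups (log2 fold change 2.06, SE 0.33, adjusted p = 0.0019). Of the female-biased genes 2 of 13 tested members were called higher and 2 lower, 30.8% of the list. Akr1c14, a steroid dehydrogenase, was at 126, 140.1, 126 and 125 CPM in young and 19.8, 24.7 and 19.8 CPM in treated liver. Levels of Akr1c14 fell, with each treated liver below all young ones (log2 fold change −2.55, SE 0.43, adjusted p = 0.00241). Apoa4, an apolipoprotein gene, rose from 146 ± 27.0 to 405 ± 146 CPM (SD, n = 4 and 3, adjusted p = 0.00382). Rtn4 was lower (log2 fold change −2.38, SE 0.48, adjusted p = 0.0065) and Wfdc2 higher (log2 fold change 1.98, SE 0.52, adjusted p = 0.0273). These calls were lost without ABT-737 replicate 4 and 5, respectively (adjusted p = 0.0559 and 0.126). In the growth hormone axis Cish, a feedback inhibitor that STAT5 induces, was lower (log2 fold change −1.47, SE 0.36, adjusted p = 0.0197), and its call was lost without ABT-737 replicate 5 (adjusted p = 0.0963). Of the xenobiotic metabolism genes 2 of 76 tested members were called higher and 4 lower, near the share of all genes. In the fit without vehicle replicate 3, 15 were called, and the count over all genes rose from 469 to 964. Ugt2b34, a glucuronosyltransferase, was at 227, 234, 321 and 261 CPM in young and 35.7, 37.9 and 27.2 CPM in treated liver. Ugt2b34 was lower in every treated than in every young liver (log2 fold change −2.95, SE 0.38, adjusted p = 5.59e-04). Ugt2b35 and Cyp3a13 were lower and Gsta2 and Gstt1 higher, with log2 fold changes of −1.62, −2.65, 0.97 and 0.88, and each of these calls was lost without ABT-737 replicate 4 or 5 (adjusted p = 0.201, 0.158, 0.187 and 0.184).

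Leukocyte genes were described by cell type. None of the 8 MHC class II presentation genes tested was called with edgeR, with 1 at an unadjusted p under 0.05, and none with DESeq2, with a median log2 fold change of 0.41. Of these 8, 2 did not overlap between the groups, against 29.3% of all genes. H2-Aa, a class II α chain, was at 126, 209, 229 and 234 CPM in young and 361, 237 and 490.2 CPM in treated liver, without overlap (log2 fold change 0.86, SE 0.34, adjusted p = 0.134), and at 2369.7, 2271 and 958 CPM with vehicle. It was called with only young and ABT-737 libraries fitted (adjusted p = 0.0119). H2-Ab1 was at 147, 288, 201 and 305 CPM in young and 246, 195 and 384 CPM in treated liver. H2-Ab1 did not pass the test (log2 fold change 0.22, SE 0.33, adjusted p = 0.713). The summed level of the class II list was 525 to 794 CPM in young, 654 to 1297 in treated and 3199 to 7157 in vehicle-treated liver. For vehicle minus young the list had a median of 3.06, with all 8 members called higher. Of the macrophage and Kupffer cell genes 0 of 27 tested members were called higher and 1 lower, 3.7% of the list against 8.40% of all genes. Without vehicle replicate 3, 4 were called, while the count over all genes rose from 469 to 964. The summed level was 2444 to 2986 CPM in young, 2779 to 3329.8 in treated and 5953 to 7742 in vehicle-treated liver. The lower gene was Slc40a1, the iron exporter ferroportin (log2 fold change −2.73, SE 0.58, adjusted p = 0.00854), which is also expressed in hepatocytes, and its call was lost without ABT-737 replicate 4 (adjusted p = 0.06). The lysosomal proteases Ctsb and Ctsd had log2 fold changes of 0.65 and 0.41 (adjusted p = 0.189 and 0.287), and both were called with only young and ABT-737 libraries fitted (adjusted p = 0.0032 and 0.044). In bulk tissue, fewer cells of a type and less RNA per cell cannot be told apart.

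Of 20 genes of cytotoxic lymphocytes only 2 were tested and 18 were not. Both tested genes were called higher than in young liver, where 8.40% of all genes were called. The summed level of the list was 27.1, 25.3, 21.5 and 44.1 CPM in young and 63.4, 28.5 and 76.7 CPM in treated liver, so that the groups overlapped. Ccl5, the chemokine RANTES, was at 5.81, 5.96, 6.14 and 11.5 CPM in young, 31.7, 11.4 and 52.0 in treated and 218, 352 and 275 in vehicle-treated liver (log2 fold change 2.04, SE 0.51, adjusted p = 0.022 against young). The lowest treated library lay just below the highest young one, and the call was lost without ABT-737 replicate 5 (adjusted p = 0.205). Nkg7, a granule protein, had 2 counts over the young and 11 over the treated libraries, a ratio of 11-fold (95% counting interval 2.39 to 102) with adjusted p = 0.0323, and was likewise lost without replicate 5 (adjusted p = 0.139). Both were lower than with vehicle (log2 fold changes −3.22 and −2.02, adjusted p = 2.05e-04 and 0.0321). They passed the count filter only through the vehicle libraries, where they were high, so this contrast is not separate evidence. Granzyme genes Gzma and Gzmk had no count in young or treated liver. Of 26 T cell genes 3 were tested, of which 0 were called lower and 1 higher (33.3% against 8.40% of all genes). It was the kinase gene Zap70 (log2 fold change 1.16, SE 0.30, adjusted p = 0.0275). Zap70 was not called after GC correction (adjusted p = 0.0684) or without ABT-737 replicate 5 (adjusted p = 0.0995). Thy1 had a log2 fold change of 1.14 (adjusted p = 0.492). Of the B cell and plasma cell genes Sdc1, a proteoglycan that hepatocytes also make, was called (log2 fold change 1.02, SE 0.20, adjusted p = 0.00632), and Xbp1 was not (log2 fold change −0.48, SE 0.25, adjusted p = 0.256). The B cell markers Cd79a, Ms4a1 and Pax5 had no count. The neutrophil genes Lcn2 and Prtn3 reached 71.3, 7.59 and 2.48 and 59.4, 3.79 and 0 CPM in the treated livers, with replicate 3 far above the others, and were not called by edgeR (0 of 2, 0 at an unadjusted p under 0.05, adjusted p = 0.324 and 0.27) or DESeq2. With no filter beyond 1 count edgeR called both (adjusted p = 0.00122 and 0.00159).

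Of the interferon-induced genes 10.7% and of the chemokine and cytokine genes 12.5% were called, against 8.40% of all genes. Of the interferon-induced genes 2 of 28 tested members were called higher and 1 lower. In the fit without vehicle replicate 3, 6 were called, and the count over all genes rose from 469 to 964. Iigp1, an immunity-related GTPase, was at 87.1, 89.4, 109 and 94.0 CPM in young, 26.2, 33.9 and 84.8 with vehicle and 11.9, 13.3 and 7.43 in treated liver. Each treated liver lay below both other groups (log2 fold change −3.09, SE 0.43, adjusted p = 8.83e-04 against young). Against vehicle the log2 fold change was −2.23 (adjusted p = 0.0131). Ifi27 and Bst2 were higher, with log2 fold changes of 0.94 and 0.98 (adjusted p = 0.0274 and 0.0301), but not without ABT-737 replicate 5 (adjusted p = 0.196 and 0.16) or after GC correction (adjusted p = 0.0581 and 0.0614). Of the chemokine and cytokine genes 0 of 8 tested members were called higher and 1 lower, which was Ccl9 (log2 fold change −1.66, SE 0.46, adjusted p = 0.033). It was lost without ABT-737 replicate 5 (adjusted p = 0.123). Cxcl12 had a log2 fold change of −0.57 (adjusted p = 0.43). Of 11 genes chosen from those named in the study's text, 3 passed the count filter. Beside Ccl5, Cxcl9 was at 5.81, 13.4, 15.4 and 11.5 CPM in young and 15.9, 13.3 and 32.2 CPM in treated liver. Cxcl9 did not pass the test (log2 fold change 0.78, SE 0.57, adjusted p = 0.433). Cxcl10 was at 5.81, 5.96, 16.9 and 7.67 CPM in young and 3.96, 5.69 and 2.48 CPM in treated liver. Cxcl10 did not pass the test (log2 fold change −1.10, SE 0.65, adjusted p = 0.322). Both were lower than with vehicle (adjusted p = 0.0114 and 0.0101). They too passed the count filter only through the vehicle libraries, so this contrast is not separate evidence. Il6 and Il10 had 0 counts in the 7 libraries, and the counts of Ccl2 were 0, 1, 1 and 1 in young and 1, 0 and 0 in treated liver. Those of Il1rn were 2, 0, 0 and 0 and 0, 2 and 0, and those of Tnf 0, 0, 0 and 0 and 0, 0 and 1. A difference in these genes was not detectable at this depth. Of the SASP genes, the secreted factors of senescent cells, 27 were tested and 47 were not. Of those tested 2 were called higher and 1 lower, 11.1% against 8.40% of all genes. The higher genes were Gdf15 and Ccl5, and the lower gene was Vegfa, the vascular growth factor (log2 fold change −1.05, SE 0.27, adjusted p = 0.0257), which was not called without ABT-737 replicate 4 (adjusted p = 0.156).

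**Figure D4:**
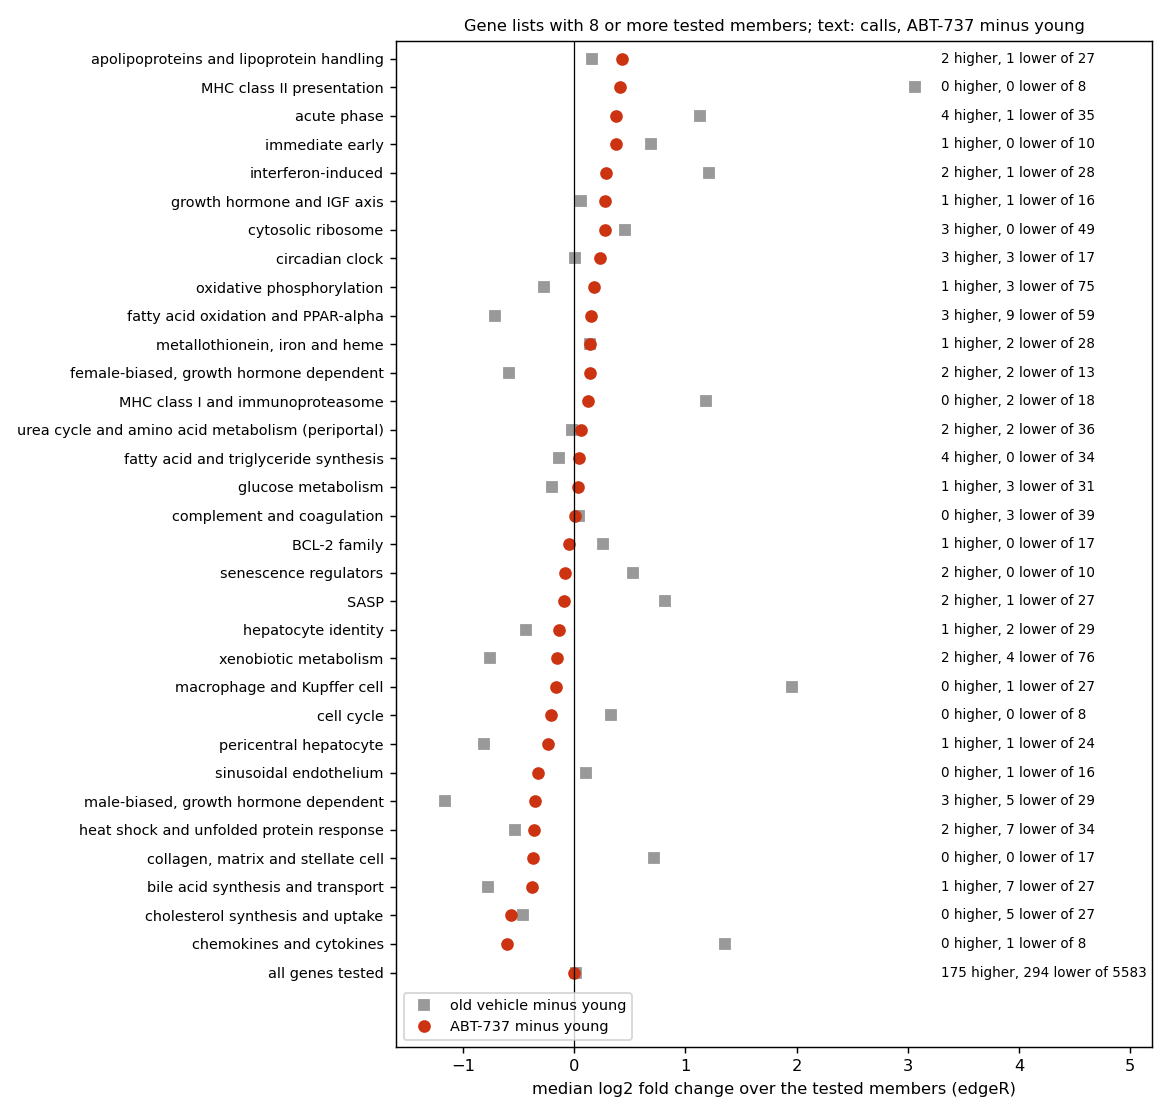
Median log2 fold change over the tested members of each gene list with 8 or more tested members, for ABT-737 minus young (circles) and vehicle minus young (squares), with the number of members called for ABT-737 minus young at the right. The comparisons share the young livers. The median of the MHC class II list was 0.41 with ABT-737 and 3.06 with vehicle, and that of all genes tested was −0.001 and 0.02.

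Of the drug target genes, Bcl2l1 and Bcl2 were tested, and their calls depended on the libraries fitted. Of the BCL-2 family 1 of 17 tested members were called higher and 0 lower, 5.88% of the list against 8.40% of all genes. Bcl2l1, the gene of BCL-XL, was at 52.3, 93.9, 55.3 and 44.1 CPM in young and 115, 118 and 84.2 CPM in treated liver. Bcl2l1 did not pass the test (log2 fold change 0.76, SE 0.30, adjusted p = 0.135). It was called with only young and ABT-737 libraries fitted (adjusted p = 0.0342). Bcl2 had 8 counts over the young and 16 over the treated libraries (log2 fold change 1.88, SE 0.78, adjusted p = 0.156), and was called without young replicate 1 (adjusted p = 0.0256), which held 6 of the 8 counts. Bcl2l2, the gene of BCL-W, which was below the filter, was at 17.4, 10.4, 18.4 and 7.67 and 15.9, 13.3 and 22.3 CPM. Mcl1, whose product ABT-737 does not bind, had a log2 fold change of 0.06 (adjusted p = 0.893). The called member was Bok, a pro-apoptotic effector (log2 fold change 1.67, SE 0.48, adjusted p = 0.0414), with overlapping libraries. It was lost without ABT-737 replicate 3 (adjusted p = 0.178) and after GC correction (adjusted p = 0.0622). Bnip3 had a log2 fold change of −1.06 (adjusted p = 0.155).

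Blood genes were higher in treated liver. All 6 hemoglobin genes were called. They were the 6 called among the 7 tested members of the erythrocyte and platelet list, 85.7% against 8.40% of all genes. Hba-a2 was at 225, 89.4, 59.9 and 115 CPM in young, 634, 224 and 436 in treated and 903, 712 and 840.0 in vehicle-treated liver (log2 fold change 1.81, SE 0.39, adjusted p = 0.00854). Hemoglobin genes took 0.0356% to 0.146% of counts in young and 0.124% to 0.318% in treated liver, so that the groups overlapped. These genes are near-identical copies that overlap each other in the table, so that reads may be shared and they are not separate observations. Without ABT-737 replicate 3 none of the 6 was called (adjusted p from 0.0576 for Hba-a2 to 0.231 for Hbb-b1). The livers were perfused, and the part of residual blood in other differences was not tested.

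Of the hepatocyte identity genes 10.3%, of the pericentral genes 8.33% and of the 6 cholangiocyte genes tested 16.7% were called, against 8.40% of all genes. Of the hepatocyte identity genes 1 of 29 tested members were called higher and 2 lower. Apob, the structural protein of very low density lipoprotein, was at 549.9, 541, 659 and 478 CPM in young and 119, 167 and 81.7 CPM in treated liver. All treated livers lay below the young range for Apob (log2 fold change −2.17, SE 0.40, adjusted p = 0.00396). With vehicle Apob was at 26.2, 136 and 186 CPM (ABT-737 against vehicle adjusted p = 0.995). Ttpa, the vitamin E transfer protein gene, was at 118, 129.7, 199.7 and 138 CPM in young and 31.7, 24.7 and 2.48 CPM in treated liver. Ttpa fell without overlap of the groups (log2 fold change −2.96, SE 0.54, adjusted p = 0.00421). Of the apolipoprotein genes 2 of 27 tested members were called higher and 1 lower (11.1% of the list), Apoa4 and Apol9a being the higher ones. Apol9a (log2 fold change 1.03, SE 0.26, adjusted p = 0.0245) was lost after GC correction (adjusted p = 0.0532) and without ABT-737 replicate 5 (adjusted p = 0.196). Of the pericentral genes 1 of 24 tested members were called higher and 1 lower, which were the transcription factor gene Tbx3 (log2 fold change 1.59, SE 0.39, adjusted p = 0.0202) and Rgn (log2 fold change −1.75, SE 0.48, adjusted p = 0.0314). They were lost without ABT-737 replicates 4 and 5 (adjusted p = 0.0871 and 0.126). Of the sinusoidal endothelium genes 0 of 16 tested members were called higher and 1 lower, 6.25% of the list. The lower gene was Oit3 (log2 fold change −1.43, SE 0.41, adjusted p = 0.0398), lost without ABT-737 replicate 5 (adjusted p = 0.186). The summed level of this list was 939 to 1089.6 CPM in young and 686 to 863 CPM in treated liver, without overlap. Of the cholangiocyte list, Anxa4 was lower (log2 fold change −2.72, SE 0.58, adjusted p = 0.00854), lost without ABT-737 replicate 4 (adjusted p = 0.0794), and Clu and Aqp1 had log2 fold changes of 0.03 and −0.49 (adjusted p = 0.952 and 0.317). None of the 17 collagen, matrix and stellate cell genes tested was called with edgeR (3 at an unadjusted p under 0.05) or DESeq2, with a median of −0.37 and summed levels of 2129.9 to 2509.6 CPM in young and 2143 to 2240.5 CPM in treated liver. The collagen gene Col18a1, which hepatocytes also express, had a log2 fold change of 0.38 (adjusted p = 0.297) and the fibronectin gene Fn1 at −0.46 (adjusted p = 0.561). Col3a1, a fibrillar collagen below the filter, had 7, 10, 9 and 11 counts in young and 0, 1 and 1 in treated liver, a ratio of 9.28-fold (95% counting interval 2.39 to 79.5). None of the 8 cell cycle genes tested was called by either tool (0 at an unadjusted p under 0.05 with edgeR), Ccnd3 and Tuba1b with log2 fold changes of −0.22 and −0.36 (adjusted p = 0.67 and 0.491).

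In energy metabolism, of the glucose metabolism genes 1 of 31 tested members were called higher and 3 lower, 12.9% of the list against 8.40% of all genes. Pfkfb3, which makes the activator of glycolysis fructose 2,6-bisphosphate, was at 34.9, 62.6, 33.8 and 49.9 CPM in young and 3.96, 3.79 and 2.48 CPM in treated liver. Levels of Pfkfb3 fell, with each treated liver below all young ones (log2 fold change −3.66, SE 0.60, adjusted p = 0.00225). With vehicle Pfkfb3 was at 0, 8.19 and 1.28 CPM (ABT-737 against vehicle adjusted p = 0.931). The glycogen branching enzyme gene Gbe1 was at 25.2, 44.7, 78.3 and 40.3 CPM in young and 0, 3.79 and 7.43 CPM in treated liver. Gbe1 was lower in every treated than in every young liver (log2 fold change −3.44, SE 0.65, adjusted p = 0.00495). Its call held in every alternative that tested it. Ugp2, which makes UDP-glucose for glycogen, was lower too (log2 fold change −2.44, SE 0.66, adjusted p = 0.0301) but not without ABT-737 replicate 4 (adjusted p = 0.182). Irs2, the insulin receptor substrate, was at 13.6, 8.94, 13.8 and 11.5 CPM in young and 55.5, 74.0 and 24.8 CPM in treated liver. All treated livers lay above the young range for Irs2 (log2 fold change 2.11, SE 0.43, adjusted p = 0.00722). The call was lost without replicate 4 (adjusted p = 0.0894). Of the urea cycle and amino acid genes 2 of 36 tested members were called higher and 2 lower, 11.1% of the list. The kynurenine pathway enzymes Kmo, from 158 ± 20.8 to 32.5 ± 20.2 CPM, and Kynu, from 73.6 ± 18.4 to 20.2 ± 0.609 CPM, fell (SD, n = 4 and 3, adjusted p = 0.00434 and 0.0104). Mat1a, which makes S-adenosylmethionine, rose from 2125 ± 209.9 to 4396 ± 230.4 CPM (SD, n = 4 and 3, adjusted p = 0.00745). Asl was higher (log2 fold change 1.05, SE 0.30, adjusted p = 0.0404), but not after GC correction (adjusted p = 0.0658) or without replicate 5 (adjusted p = 0.199). Kynu was not called without replicate 4 (adjusted p = 0.0593). Of the oxidative phosphorylation genes 1 of 75 tested members were called higher and 3 lower, 5.33% of the list and below the share of all genes. Without vehicle replicate 3, 10 were called, while the count over all genes rose from 469 to 964. Uqcrc2 of complex III, Sdha of complex II and Atp5f1 of the ATP synthase were lower, with log2 fold changes of −1.94, −1.09 and −1.71, and Ndufs6 of complex I was higher, with 0.81 (adjusted p = 0.00513, 0.00781, 0.0274 and 0.0479). Of these, Uqcrc2 alone kept its call with each library left out, and the other 3 had adjusted p up to 0.0556, 0.124 and 0.169. Of the cytosolic ribosome genes 3 of 49 tested members were called higher and 0 lower, 6.12% of the list and below the share of all genes. They were Rpl37, Rps14 and Rps15 (log2 fold changes 1.19, 0.79 and 0.94, adjusted p = 0.0163, 0.0275 and 0.0136). All 3 were lost without 1 library (adjusted p up to 0.0894, 0.134 and 0.0804). Of the complement and coagulation genes 0 of 39 tested members were called higher and 3 lower, 7.69% of the list and near the share of all genes. Beside C9, F13b, the carrier subunit of coagulation factor XIII, was at 67.8, 87.9, 86.0 and 63.3 CPM in young and 7.93, 3.79 and 2.48 CPM in treated liver. F13b fell without overlap of the groups (log2 fold change −4.10, SE 0.53, adjusted p = 5.59e-04). With vehicle F13b was at 0, 16.4 and 21.8 CPM (ABT-737 against vehicle adjusted p = 0.166). F11, coagulation factor XI, went from 84.0 ± 5.25 to 30.2 ± 9.0 CPM (SD, n = 4 and 3, adjusted p = 0.00838). Of the metallothionein, iron and heme genes 1 of 28 tested members were called higher and 2 lower, 10.7% of the list. These were Mt2, Slc40a1 and Alas1. Of 10 immediate early genes tested only Egr1 was called, 10% of the list and near the 8.40% of all genes. Egr1 was higher (log2 fold change 2.58, SE 0.61, adjusted p = 0.0162), with overlapping libraries. Its call was lost without replicate 5 (adjusted p = 0.136). Dusp1 and Gadd45g had log2 fold changes of −0.36 and −0.85 (adjusted p = 0.646 and 0.296). Of 4 fetal and postnatally declining genes tested, 1 was called (25% against 8.40% of all genes). This was Lgals1, a galectin, at 29.0, 8.94, 13.8 and 30.7 CPM in young and 95.1, 56.9 and 104 CPM in treated liver. Levels of Lgals1 rose, with each treated liver above all young ones (log2 fold change 2.06, SE 0.39, adjusted p = 0.00505). Ly6e and Ly6a had log2 fold changes of 0.28 and 1.11 (adjusted p = 0.62 and 0.217). Of the pancreas and lung markers, Cela1, Cela2a and Hopx had log2 fold changes of −0.29, −0.47 and −0.87 (adjusted p = 0.641, 0.804 and 0.145).

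The direction of change varied with the base composition of transcript ends. Across 5497 genes with a matched GENCODE transcript (98.5% of those tested), the log2 fold change of ABT-737 minus young had a Spearman correlation of 0.366 with the GC content of the last 500 bases, a value across genes, which are not independent replicates. The median GC content was 37.4% for genes called lower, 50.4% for genes called higher and 47.0% for all genes tested. In the decile of lowest GC content 19.8% of genes were called lower and 1.09% higher, with a median log2 fold change of −0.52, and in the highest decile 0.374% were lower and 4.86% higher, with a median of 0.26. Vehicle minus young had a correlation of 0.411 and ABT-737 minus vehicle −0.088. By library, the correlation of each gene's deviation from its mean with GC content was −0.419 to −0.330 in young, 0.0455 to 0.213 in treated and 0.048 to 0.513 in vehicle-treated livers, so that young livers stood apart from both old groups. After each library was corrected for this trend, the share of higher genes among the calls went from 37.3% to 50.4%. Beside genes marked above, Acot12, Decr1, Stard4, Mup11, Rgn, Oit3, Ugt2b35, Ugp2, Gstt1, Rps14, Ndufs6, Hbb-bs and Amacr were not called after the correction. Cdkn1a, Dbp, Nr1d1, Cidec, Hspa5 and Etfa had log2 fold changes of 5.87, −5.23, −4.40, 4.27, −1.92 and −1.79 after the correction (adjusted p = 4.53e-05, 9.37e-08, 2.83e-04, 5.25e-04, 0.00304 and 0.00155). RNA integrity is not given in the sources used here, and its part in the trend was not tested.

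**Figure D5:**
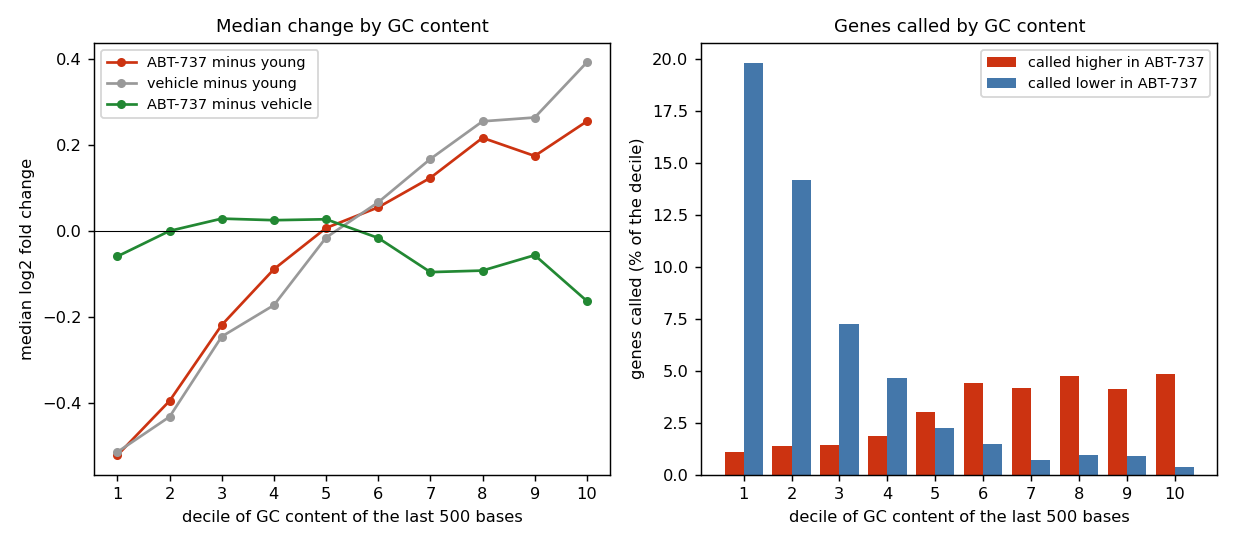
Left, median log2 fold change of the 3 liver comparisons by decile of the GC content of the last 500 bases of the transcript. Right, percent of the genes in each decile called higher or lower in ABT-737-treated than in young liver, falling from 19.8% to 0.374% for lower genes.

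Whether the changes differed from those of other organs was tested against kidney and lung of the same design, each with 10 libraries. The organs share replicate numbers, and the labels do not say whether these came from the same mice. All libraries were fitted as independent, so the interaction p-values do not account for shared mice. The change from young to ABT-737 differed between liver and kidney for 218 of 10416 genes (2.09%) and between liver and lung for 315 of 11067 genes (2.85%) by edgeR's interaction test, and these counts fell to 133 and 132 after GC correction. Cdkn1a had a larger fold change in liver than in either organ (interaction log2 4.77 against kidney and 5.13 against lung, adjusted p = 4.98e-04 and 0.00258). The young level was low in liver, and the treated level in liver did not exceed that in lung. In the fit with lung the mean rose from 6.49 to 452 CPM in liver and from 280 to 543 CPM in lung. In kidney it went from 21.7 to 55.6 CPM. In kidney and lung themselves Cdkn1a had log2 fold changes of 1.36 and 0.95, which did not pass the test (adjusted p = 0.0558 and 0.266).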

How the data were processed

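RNA from perfused liver was made into 3′ end libraries by a bulk derivation of MARS-seq. The deposited values are raw counts per RefSeq transcript, 1 per gene, which the authors made from their reads. The submitters' processing notes name bcl2fastq, HISAT 0.1.5 and HOMER with the genome build mm10, without the role of each, and neither collapsing of molecular identifiers nor use of strand is stated. Counting intervals and limits therefore cover counting error only.

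From the counts, 10 liver libraries (4 young, 3 vehicle, 3 ABT-737) were fitted together in edgeR 4.0.16 (R 4.3.3) with TMM normalization, filterByExpr and the quasi-likelihood F test, and ABT-737 was contrasted with young. Of 24537 genes, 5583 passed the filter. P-values were adjusted by the Benjamini-Hochberg method over all genes tested, and an adjusted p under 0.05 made a call. The study gives at least 3 mice per group for its RNA sequencing, but the labels do not tie libraries to mice, so p-values measure the spread between these libraries. No pair of libraries in a group agreed within counting noise. Liver minus kidney and liver minus lung changes were tested as interactions in the same way. The common biological coefficient of variation was 23.5%.

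Genes were named by rule: the 12 highest and 12 lowest fold changes among called genes without overlap, up to 5 called members per list and direction, 2 members by level where fewer than 2 were called, 11 genes taken from the study's text, the drug targets, and the 5 highest and 5 lowest interactions. Others are marked in the text. Some genes in the lists, counted with their lists, are not reported here by name. The comparison and gene lists were chosen with earlier results of these data known. Alternatives were DESeq2 1.42.0 and its size factors, other filters, a fit of 2 groups, a replicate block, a fold change minimum and leaving out each library. The correction for GC content was chosen after seeing the data, and took a loess curve (span 0.5) of each library's log2 deviations on the GC content of the last 500 bases of the transcript as offsets. The tests were checked on simulated data, where 31.6% of 2-fold and 91.3% of 4-fold changes between ABT-737 and young liver were called. Genes that were not called may therefore still differ by 2-fold. The skin table was not used here.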

Additional observations from a re-analysis of the deposited data

Results flagged for a closer look

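In 10 of 166 groups of 4 young livers, 1 library lay far from the other 3 by Dixon's test, which flags about 1 in 20 groups by chance. These were Akr1c14 in young replicate 2 (140.1 CPM), Bcl2 in replicate 1 (11.6 CPM), Ccl5 in replicate 4 (11.5 CPM), Cela2a in replicate 1 (60.0 CPM), Cidec in replicate 3 (4.61 CPM), Cxcl10 in replicate 3 (16.9 CPM), Dnase1l3 in replicate 4 (189.9 CPM), Lcn2 in replicate 2 (13.4 CPM), Prtn3 in replicate 2 (7.45 CPM) and Vegfa in replicate 1 (104.6 CPM).

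The change from young to ABT-737 in liver differed from that in kidney and lung for 218 and 315 genes by edgeR's interaction test, and 159 and 167 of them were also called in liver. The 5 highest and 5 lowest of these are given for each organ. Dnajb9 and Copb1, the chaperone and coat genes without a count in treated liver, had liver minus kidney values of −9.22 and −8.04 and liver minus lung values of −9.99 and −8.85, which depend on the prior count. The liver minus kidney value was −5.23 for Serinc1, −4.53 for Gnai3, −4.53 for Nectin3, 3.82 for Cdc42ep5, 3.89 for Irs2, 4.69 for Mt2, 4.77 for Cdkn1a and 5.16 for Cidec. The liver minus lung value was −6.97 for Gbp11, −6.02 for Timd2, a ferritin receptor, −5.80 for Pnpla8, a phospholipase, 3.56 for Mt2, 3.57 for Ppp1r1b, 3.65 for Cda, 4.09 for Cdc42ep5 and 5.13 for Cdkn1a. In the liver itself, Pnpla8 went from 68 counts to 2, a ratio of 17.1-fold (95% counting interval 4.54 to 144), Timd2 fell from 99.8 ± 8.97 to 33.9 ± 8.40 CPM and Ppp1r1b, a phosphatase inhibitor, rose from 13.5 ± 4.26 to 64.6 ± 13.6 CPM (SD, n = 4 and 3, adjusted p = 0.00339, 0.029 and 0.0019). Timd2 had no count in young lung, so its value against lung also depends on the prior count. After GC correction the differences of Copb1 and Nectin3 from kidney and of Mt2 from lung were not called (adjusted p = 0.0519, 0.0554 and 0.0562). The liver call of Timd2 was lost without ABT-737 replicate 4 (adjusted p = 0.144).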

How the results depend on the processing

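The count of 469 genes called between ABT-737-treated and young liver was 491 with DESeq2 size factors, 456 with DESeq2, 413 with a log2 fold change over 1 and 411 with the GC correction. It was 750 with no filter beyond 1 count, 86 with at least 10 counts in every library and 1102 with only young and ABT-737 libraries fitted. There the spread is estimated from fewer samples and without the vehicle libraries. Pairs of libraries had log2 CPM correlations of 0.817 to 0.930 in vehicle, 0.947 to 0.958 in young and 0.916 to 0.936 in ABT-737-treated liver. The part of this difference in the count was not tested. With 1 library left out it ranged from 197 to 964. For vehicle against young (1261) the count was 1942 without the filter, 496 with 10 counts in every library and 859 to 1486 with 1 library left out. For ABT-737 against vehicle (215) it was 512, 105 and 44 without ABT-737 replicate 4 to 529 without vehicle replicate 3. For liver minus kidney (218) it was 429 without the filter, 21 with 10 counts in every library, 544 with only young and ABT-737 libraries, 133 with the GC correction and 80 to 378 with 1 library left out. For liver minus lung (315) these were 517, 28, 617, 132 and 106 without liver ABT-737 replicate 5 to 602 without lung ABT-737 replicate 4.

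The labels number replicates, but young and ABT-737 livers share only numbers 3 and 4, and same-numbered libraries did not deviate together (correlations −0.0262 and −0.0352, and −0.0442, 0.16 and −0.0227 for vehicle and ABT-737), so the numbers were not taken as pairs. With a replicate block 39 genes were called for ABT-737 against young, 291 for vehicle against young and 54 for ABT-737 against vehicle.

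Of the 127 named genes called, 19 were called in every alternative that tested them and 56 in every one but the replicate block, 71 lost the call without 1 library, and 0 changed direction. Of the 39 named genes tested and not called, 13 were called in at least 1 alternative. The 19 were Cdkn1a, Dbp, Nr1d1, Dnajb9, Cidec, Cyp51, Etfa, Abcd3, Dld, Serinc1, Tmed7, F13b, Gbe1, Iigp1, Akr1c14, Nudt7, Ugt2b34, Lrfn3 and Rnf125. The median of all genes stayed within 0.1 log2 of 0 in all alternatives. With 267345 to 560554 counts in treated liver, cytokine genes and p16 lay near or below detection.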
